A study of Mus musculus with 6 samples.

Results

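The peaks described here are the regions called for DAXX in 2 mouse embryonic stem cell lines by chromatin immunoprecipitation and sequencing (ChIP-seq), 570 in wild-type J1 cells (WT) and 2046 in DNMT triple-knockout cells (TKO). Together they are 2616 of the 7165 peaks in the 6 deposited lists of the series, and every peak of both DAXX lists was used. WT cells carry the DNA methyltransferases, and TKO cells are homozygous knockouts for all of the DNA methyltransferases the design names. Both lines were grown in embryonic stem cell medium with PD0325901 at 1 µM, which inhibits the kinase MEK, and CHIR99021 at 3 µM, which inhibits the kinase GSK3. Cells were fixed in 4% paraformaldehyde for 10 min at 4 °C, and each library was made from roughly 10 ng of DNA. Lists for ATRX and for rabbit IgG from the same lines served as the background. The labels do not say whether either line is 1 clone or how many passages it had. There was 1 library per line and antibody, so no difference between the lines has a replicate check and none was tested. Intervals in brackets are exact (Clopper-Pearson) 95% binomial intervals. They cover counting error over peaks only, and neighbouring peaks are not independent of each other.

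DAXX is a histone chaperone. With the chromatin remodeller ATRX it deposits the histone variant H3.3, and the pair is known for acting at telomeres, at the satellite repeats around centromeres and at silenced repeats in embryonic stem cells. DNA methyltransferases place and maintain methyl groups on cytosine, a mark that helps to keep repeats and many other sequences silent. The comparison asks where DAXX was called on chromatin with these enzymes present and after their loss.

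The list labelled TKO DAXX was not independent of another list in the series. It shared 750 intervals with the list labelled WT ATRX that were identical at both ends, 36.7% of its own peaks (34.6 to 38.8) and 52.1% of the WT ATRX peaks. The other 1296 TKO DAXX peaks, 63.3% of the list, overlapped no WT ATRX peak. The WT DAXX list had 0 intervals identical to those of any other list. Results are therefore given with all TKO DAXX peaks and, for several that changed, also without the 750. Which label the shared intervals belong to was not tested and cannot be told from the lists.

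The lists differed in size and in how the scores were spread. The score is the authors' value for each peak, higher for a stronger call, and its size varies with read depth and with the control used. It therefore ranks peaks within a list and does not measure a change between lists. The WT list ran from 50.02 to 1007.39, with a median of 72.25, an upper quartile of 135 and an upper 10% beginning at 309.9. The TKO list ran from 70.01 to 1792.48, with a median of 82.9, an upper quartile of 94.3 and an upper 10% beginning at 115.1. The TKO peaks thus lay close above their lower limit, while the WT peaks were spread widely. At its lower limit the WT list held a peak on chromosome 10 from 24988582 to 24988963 (score 50.02), and the TKO list one on chromosome 2 from 75712104 to 75712450 (70.01).

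Because the lists stop at different scores, they were also compared at a common score of 70 or more. This left 299 WT peaks, 52.5% of the list, and all 2046 TKO peaks. The WT peak just inside that limit scored 70.38 (chromosome 9 from 123842855 to 123844940), and 3 peaks just outside it scored 69.98. The ratio of TKO to WT peaks was 3.59 over the whole lists (3.27 to 3.95), 6.84 at 70 or more (6.06 to 7.75), 4.88 at 80 (4.25 to 5.63) and 2.08 at 100 (1.75 to 2.49). The WT list first held more peaks at a score of 122.93, with 154 against 153, and the lists were level at 123.23, with 152 each. At 150 or more there were 125 WT and 69 TKO peaks, a ratio of 0.552 (0.405 to 0.746), and at 300 or more 59 WT and 21 TKO peaks, a ratio of 0.356 (0.205 to 0.595). At the extreme top the order turned again, with 4 TKO peaks above the highest WT score. All 4 were intervals that the WT ATRX list also holds. Without the 750 identical intervals the ratio over the whole lists was 2.27. Such intervals made up 162 of the 327 TKO peaks between 100 and 150, and 13 of 30 between 150 and 200. They made up 10 of 18 between 200 and 300 and 16 of 21 at 300 or more. The ratios at the score cuts and the score of equal numbers were not recomputed without them. Leaving them out can only lower those ratios.

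**Figure D1:**
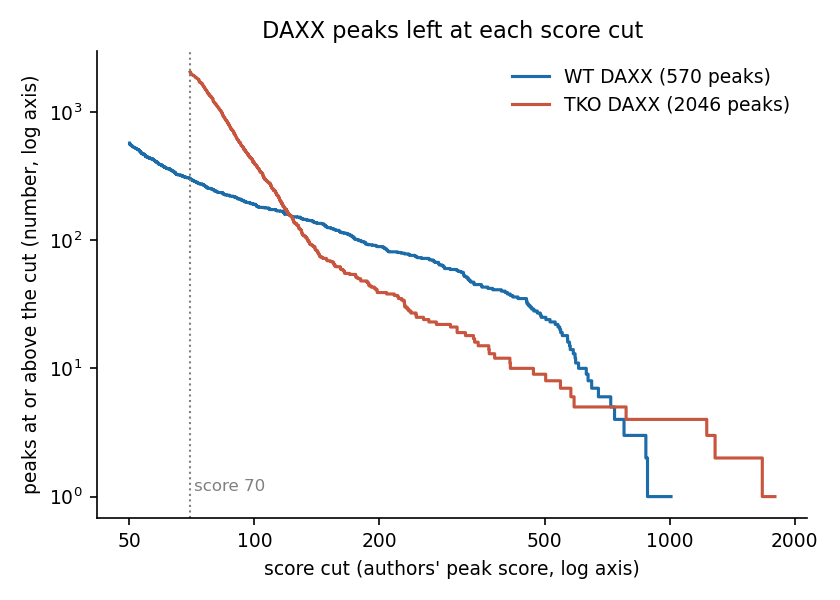
Number of DAXX peaks at or above each score cut (both axes logarithmic; x, the authors' peak score; y, number of peaks) in the WT and TKO lists, with the score of 70 dotted. The TKO line starts at 2046 peaks and falls steeply, and the WT line falls slowly. With all TKO peaks counted, the WT list first holds more at 122.93, with 154 against 153 peaks. The lists are level at 123.23 with 152 each.

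WT DAXX peaks were longer than TKO DAXX peaks among weak calls. Among strong calls they were shorter when all TKO peaks were counted, most of which were identical WT ATRX intervals. The median length was 554 bp in the WT list, with quartiles of 446 and 701 bp, and 328 bp in the TKO list, with quartiles of 283 and 376 bp. Peaks of 500 bp or more made up 62.8% of the WT list and 9.82% of the TKO list. The ATRX lists had medians of 325 bp (WT) and 348 bp (TKO), and the IgG lists had 440 bp (WT) and 574 bp (TKO), with 44.8% and 57.7% of their peaks at 500 bp or more. In length the WT DAXX list was thus closer to TKO IgG than to the other DAXX and ATRX lists. Between scores of 70 and 80 the medians were 517 bp (WT, 56 peaks) and 324 bp (TKO, 859 peaks). Between 150 and 200 they were 599 bp (36 peaks) and 588 bp (30 peaks). At 300 or more they were 701 bp (59 peaks) and 1047 bp (21 peaks), with WT quartiles of 584 and 769 bp and TKO quartiles of 669 and 1445 bp. Of these 21 TKO peaks 16 were identical WT ATRX intervals. Among the 20 highest TKO peaks, the 4 in no other list were 1445, 309, 503 and 280 bp long. Medians by band without the identical intervals were not computed. Length rose with score only weakly across the peaks of either list (Spearman's rho 0.24 in WT and 0.18 in TKO, over peaks of 1 library each, as a description). The lists covered 348.3 kb in WT and 755.1 kb in TKO cells, at mean lengths of 611 and 369 bp. The TKO list thus held 3.59 times as many peaks over 2.17 times the length. With the 299 highest peaks of each list, the TKO peaks covered 0.924 times the length of the WT peaks.

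**Figure D2:**
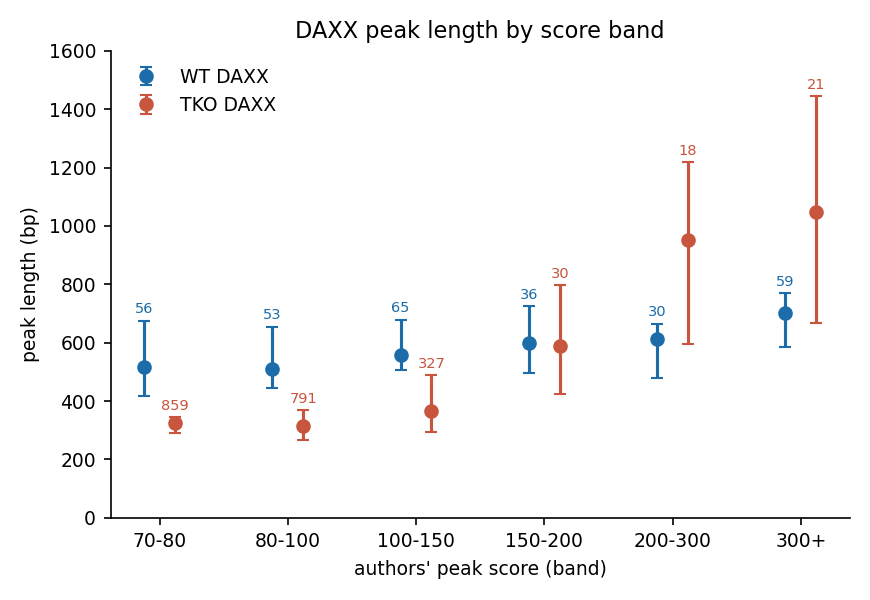
Length of DAXX peaks (y, bp) by band of the authors' score (x) in the WT and TKO lists; points are medians, bars run from the lower to the upper quartile, and the small numbers count peaks. WT medians lie above TKO medians below a score of 150, and TKO medians lie above WT medians from 200 on. Of the TKO peaks, 10 of 18 between 200 and 300 and 16 of 21 at 300 or more are identical WT ATRX intervals.

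The longest peaks of the lists lay in different places. The WT list held an interval of 8032 bp on chromosome 8 from 19882276 to 19890307, with a score of only 53.32, and next one of 2440 bp on chromosome 13 from 23492475 to 23494914 (58.71). The following 3 were 2086 bp on chromosome 9, 1684 bp on chromosome 4 and 1659 bp on chromosome 19. Of these 5, the one on chromosome 9 was in the TKO list and the others were in no other list. The TKO list held 5859 bp on chromosome 17 from 39979928 to 39985786 (143.45), 4684 bp on chromosome 1 from 24618358 to 24623041 (208.15) and 2755 bp on chromosome 8 from 56205306 to 56208060 (114.77). The last of these overlapped a TKO IgG peak, and the one on chromosome 17 overlapped a TKO ATRX peak. The other 2 were on chromosome 11 (2359 bp) and chromosome 12 (2343 bp). Of the 5 longest TKO peaks 0 overlapped a WT DAXX peak, where the share over the whole list was 0.489%.

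DAXX was called at almost entirely different places in the lines. Of the WT peaks, 10 overlapped a TKO DAXX peak by 1 bp or more, 1.75% of the list (0.844 to 3.20). These met 10 TKO peaks, 0.489% of that list. With a score of 70 or more in both lists, 7 peaks were common, 2.34% of the WT peaks (0.946 to 4.76) and 0.342% of the TKO peaks. Against this, the WT DAXX list overlapped WT ATRX in 5.61% of its peaks and TKO ATRX in 2.46%, and each IgG list in 0.175%. The TKO DAXX list overlapped TKO ATRX in 5.47% of its peaks, WT IgG in 0.147% and TKO IgG in 0.244%. The overlap between the DAXX lists was therefore smaller than that of either DAXX list with the ATRX list of its own line. Such a share also depends on the length of the other list. The lists held 570 (WT DAXX), 2046 (TKO DAXX), 1440 (WT ATRX) and 1650 (TKO ATRX) peaks. These differences between shares were not tested. The controls used in calling were not given, and if IgG was the control, a low overlap with IgG would follow from the calling. Of the 10 TKO peaks in common, 9 were among the 750 identical intervals. Without those the overlap was 1 peak, 0.175% of the WT list, the same share as with each IgG list, and 0.0772% of the TKO list, below its shares with either IgG list. The overlap with the WT ATRX list was 4.01% among WT DAXX peaks of 70 or more (12 of 299) and 7.38% among those under 70 (20 of 271).

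The strongest WT peaks had no counterpart anywhere. The 82 highest-scoring WT DAXX peaks overlapped 0 peaks of the 5 other lists, and the first that did was ranked 83. In all 530 WT peaks, 93.0% of the list (90.6 to 94.9), were in no other list. For TKO DAXX this held for 1225 peaks, 59.9% (57.7 to 62.0), and the first of them was ranked 13. The 20 highest WT peaks were spread over 15 chromosomes with at most 3 on 1 chromosome, scored from 546.37 to 1007.39 and had a median length of 707 bp. Rank 11 was held by chr7:52721843-52722581 (603.31), rank 12 by chr11:116714740-116715408 (593.6), rank 13 by chr13:45864872-45865555 (591.75) and rank 14 by chr5:121146171-121146823 (585.98). The 20 highest TKO peaks lay on 6 chromosomes, with 12 on chromosome 9, of which 10 were in its first 4 Mb, and 4 on chromosome 2. They scored from 307.72 to 1792.48 and had a median length of 1057 bp. Of them, 16 were identical WT ATRX intervals and 11 overlapped a TKO ATRX peak, where the shares over the whole TKO list were 36.7% and 5.47%. Of the 20, 4 were in no other list, among them chromosome 9 from 3006106 to 3007550 (378.85).

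The 10 regions called in both lines were spread over the ranks of each list, from 83 to 510 of 570 in WT and from 23 to 1979 of 2046 in TKO. Their WT scores ran from 52.39 to 209.44 with a median of 82.6, and their TKO scores from 70.28 to 274.26 with a median of 92.4. In 8 of the 10 the TKO peak lay wholly inside the longer WT peak, and the median lengths were 655 bp (WT) and 395 bp (TKO). None of the 10 WT intervals overlapped an IgG peak, where only 0.175% of the whole WT list overlapped each IgG list.

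In 6 of the 10 regions the score was the higher one in the TKO list. Scores rank peaks within a list, so this order does not measure a difference between the lines. For 3 of the 6, on chromosomes 1, 12 and X, the order was fixed in advance. Their WT scores were under 70, and the TKO list has no peak that low. The region on chromosome 18 from 75759239 to 75760092 scored 126.62 in WT (rank 152 of 570) and 274.26 in TKO (rank 23 of 2046), and it was the best-ranked common region of the TKO list. The region on chromosome 9 from 123842855 to 123844940, the longest of the 10, scored 70.38 in WT (rank 299) and 164.77 in TKO (rank 57). The 2 calls had nearly the same outline there, with 1912 bp in common. The region on chromosome 1 from 184430835 to 184431526 scored 53.44 in WT (rank 475) and 141.77 in TKO (rank 82). All 3 were also in both ATRX lists, with TKO ATRX scores of 448.95, 482.03 and 678.73 in that order. Their TKO DAXX intervals are all among those identical in the WT ATRX list, so these entries are not independent calls. A second region on chromosome 18, from 73607326 to 73607746, scored 71.08 and 105.11 and was in both ATRX lists too. The last 2 were weak in both lines. The region on chromosome X from 56098320 to 56098487 scored 69.81 in WT and 70.28 in TKO, with 168 bp in common. The region on chromosome 12 from 102342994 to 102343622 scored 52.39 in WT and 77.26 in TKO. It was the only one of the 10 whose TKO interval is not in the WT ATRX list, and neither ATRX list had a peak there. It is thus the 1 region that links the DAXX lists without the shared intervals, and it is lost at a common score of 70.

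The other 4 regions scored higher in the WT list. The best-ranked common region of the WT list lay on chromosome 5 from 72559268 to 72559718, with 209.44 in WT (rank 83) and 79.12 in TKO (rank 1284). Only 187 bp were in common there, since the TKO interval began earlier, at 72559140. The TKO score of this interval equals its WT ATRX score, 79.12. In every other common region with an identical interval the scores differed, as on chromosome 7 with 84.41 (TKO DAXX) and 202.76 (WT ATRX). Another region on chromosome 5, from 33014588 to 33016170, scored 148.47 in WT and 99.85 in TKO and had a TKO ATRX score of 532.5. The region on chromosome 7 from 7230576 to 7231256 scored 100.8 and 84.41, and that on chromosome 2 from 26502151 to 26502777 scored 94.16 and 85.02. Of the 10 regions, 6 were in both ATRX lists, 3 in WT ATRX alone and 1 in neither.

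**Figure D3:**
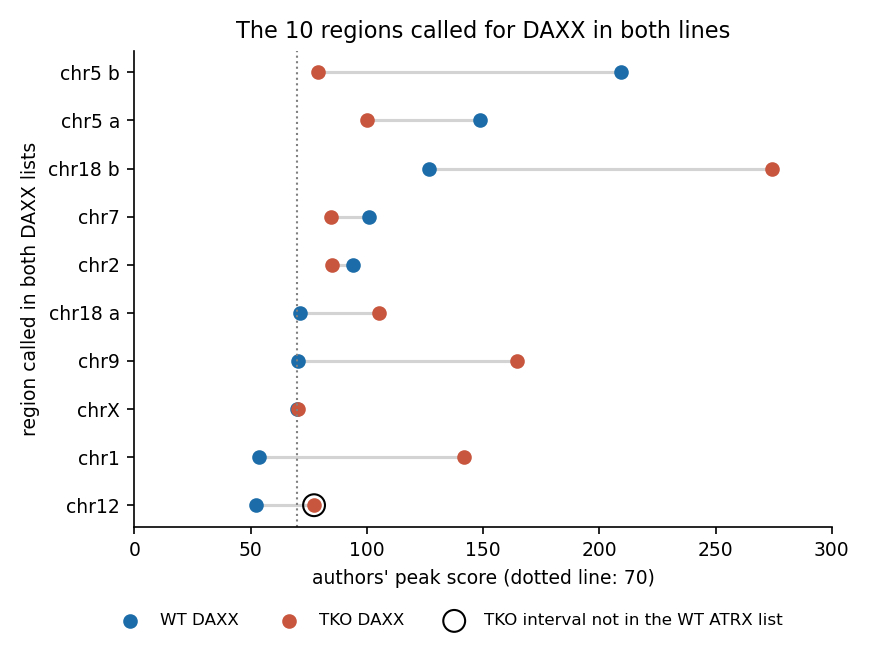
Authors' scores (x) of the 10 regions called for DAXX in both lists (y, named by chromosome; a is the region nearer the start of the chromosome), with WT and TKO points joined and the score of 70 dotted. The TKO score is the higher in 6 regions, and in 3 of them the WT score is under 70, where the TKO list has no peaks. Scores of different lists do not measure a change. The ringed region on chromosome 12 is the only one whose TKO interval is absent from the WT ATRX list.

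Allowing a gap added few pairs. No WT peak lay within 1 kb of a TKO peak without overlapping it, and within 10 kb the number of WT peaks with a TKO neighbour was 24 (4.21%). The closest pair without overlap was 4322 bp apart on chromosome 11, with a WT peak from 116601338 to 116602453 (68.13) and a TKO peak from 116606776 to 116608128 (229.33). The next 4 gaps were 4448 bp on chromosome 6, 5007 and 6095 bp on chromosome 19 and 6642 bp on chromosome 7. In the third of these 5 pairs the WT peak was a strong one, chromosome 19 from 4201325 to 4202046 with 352.04, beside a TKO peak of 71.51. The median distance from a WT peak to the nearest TKO peak was 278.6 kb, shorter than the 671.5 kb to the nearest other WT peak. The TKO list is longer, which shortens any distance to it. From a TKO peak the median was 1017 kb to the nearest WT peak and 177.9 kb to the nearest other TKO peak.

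At short range, peaks had neighbours in their own list more often than in the other list. Another WT peak lay within 10 kb of 69 WT peaks (12.1%), and another TKO peak lay within 10 kb of 179 TKO peaks (8.75%). Within 1 kb the numbers were 29 (5.09%) and 76 (3.71%).

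**Figure D4:**
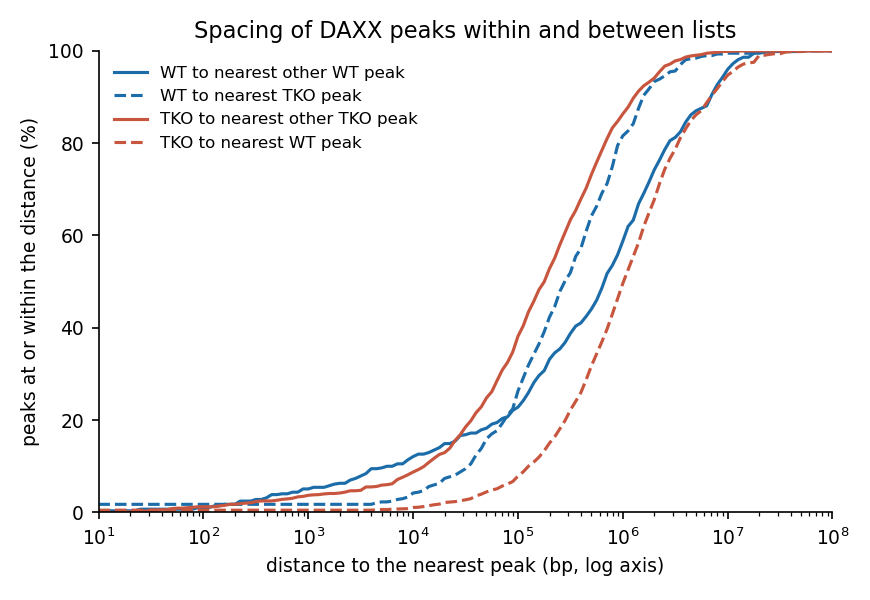
Share of DAXX peaks (y, %) whose nearest peak lies at or within a distance (x, bp, logarithmic), to the nearest other peak of the same list (solid) or to the nearest peak of the other list (dashed), overlaps included. Below 10 kb the solid lines reach 12.1% (WT) and 8.75% (TKO), above the dashed lines at 4.21% and 1.08%.

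The fullest 1 Mb bins of the WT list were chromosome 13 from 23 to 24 Mb (17 peaks) and from 21 to 22 Mb (13 peaks), and chromosome 3 from 96 to 97 Mb (11 peaks). The TKO list held 0, 0 and 2 peaks in them. Its own fullest bins were chromosome 9 from 3 to 4 Mb (26 peaks) and chromosome 8 from 125 to 126 Mb (20 peaks) and from 123 to 124 Mb (17 peaks), where the WT list held 0, 1 and 0 peaks. Groups of neighbouring peaks were then listed as runs of 3 or more peaks with gaps of at most 100 kb, a definition chosen after the peaks were seen. The WT list had 10 such runs with 68 peaks, 11.9% of the list (9.38 to 14.9), and the TKO list had 83 with 383 peaks, 18.7% (17.1 to 20.5). None of the WT runs held a TKO DAXX peak, and 5 of the 83 TKO runs held a WT DAXX peak. Overlap with the other DAXX list was rare everywhere, at 1.75% of WT and 0.489% of TKO peaks.

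The WT runs centred on chromosome 13. Between 21 and 24 Mb that chromosome carried 36 WT DAXX peaks, 69.2% of its 52, against 1 TKO DAXX, 2 WT ATRX and 2 TKO ATRX peaks. Each IgG list held 8 peaks there. Of the 36, 0 overlapped a peak of any other list, where 93.0% of the whole WT list was in no other list. Their scores ran from 50.8 to 161.15 with a median of 78.3, and 22 of them reached 70. Of the 36, 34 lay in runs, with 17 peaks from 23362107 to 23618696, 9 peaks from 21974654 to 22121313 and 8 peaks from 21252479 to 21415008. Chromosome 3 held the next run, 11 peaks from 96125688 to 96305095 with scores from 50.52 to 128.97, 4 of them at 70 or more. Chromosome 11 held 5 peaks from 68849922 to 68887484, led by one of 278.93, and 4 peaks from 48631680 to 48670709, none above 69.8. Smaller runs of 3 or 4 peaks lay on chromosomes 1, 6, 14 and 19. Of the 68 peaks in runs 34 scored under 70, near the 271 of 570 in the whole list. Without the runs on chromosomes 13 and 3, 7.43% of WT peaks had another within 10 kb.

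Chromosomes 13 and 3 are known for the clusters of replication-dependent histone genes, which make the histones of new chromatin, and mouse tRNA genes also lie in clusters. In RefSeq (GRCm38.p6) 55 of the 70 genes whose symbols begin with H1f, H2ac, H2bc, H3c or H4c and a digit, most of them replication-dependent histone genes, are on chromosome 13 and 10 on chromosome 3. Of its 408 nuclear tRNA genes, 105 are on chromosome 13, 53 on chromosome 6, 52 on chromosome 11, 40 on chromosome 3 and 37 on chromosome 1. WT DAXX runs lay on all 5 of these chromosomes and also on 14 and 19, with 12 and 10 tRNA genes. No WT run lay on chromosomes X, 17 and 10, with 17, 12 and 11 tRNA genes, or on 5 and 7, with 10 each. TKO DAXX runs lay on 4 of the 5, with 42 on chromosome 11, 2 on chromosome 1 and 1 each on 6 and 13. That table is of another build than the peaks, so only chromosomes were compared, after the runs had been seen, and whether a peak lies on such a gene was not tested.

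The TKO runs lay elsewhere. The densest was at the start of chromosome 9, where 27 TKO DAXX peaks stood between 2999985 and 3038280, a span of 38.3 kb. Mouse centromeres lie at the start of the chromosome, where satellite repeats are found. No sequence was read, so whether these peaks lie on such repeats was not tested. Scores there ran from 72.34 to 1671.01 with a median of 191, and lengths from 167 to 2111 bp. Of the 27, 11 were identical WT ATRX intervals. The same span held 5 TKO ATRX peaks, 1 WT IgG peak and 0 WT DAXX peaks. The next runs were on chromosome 8, with 14 peaks from 123497446 to 123991120 and 13 from 127907949 to 128439365. Another run there, 10 peaks from 125789303 to 125958443, had higher scores, with a median of 158.84, and long peaks, with a median of 927 bp. It had 1 identical WT ATRX interval and 0 TKO ATRX peaks. Chromosomes 8 and 11 together held 59 of the 83 runs and 274 of the 383 peaks in them. They held 12.4% and 19.6% of all TKO peaks, and a fixed gap gives more runs where peaks are denser. On chromosome X, 7 peaks from 166578438 to 166614156 stood in a span of 35.7 kb that also held 2 TKO IgG peaks. The spans of 7 of the 83 TKO runs held TKO IgG peaks, most of all one on chromosome 17 from 6273680 to 6458338, where 5 TKO DAXX peaks stood among 11 TKO IgG and 2 WT IgG peaks. Of the 383 peaks in TKO runs 83 were identical WT ATRX intervals, against 750 of 2046 (36.7%) in the whole list.

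The chromosomes were filled differently. With all TKO peaks counted, they outnumbered WT peaks on each of the 20 chromosomes from 1 to X, and chromosome Y had 2 WT peaks and 1 TKO peak. Without the identical WT ATRX intervals this held on all 20 but chromosome 13, with 44 TKO and 52 WT peaks. Chromosomes 3, 4, 14 and 19 were then nearly level, with 42 and 39, 49 and 45, 31 and 28, and 22 and 19 peaks. The ratio of all TKO to WT peaks was 9.37 on chromosome 8 (253 and 27 peaks) and 7.73 on chromosome 11 (402 and 52). On the other 18 chromosomes it lay between 1.44 on chromosome 13 (75 and 52) and 5.10 on chromosome 1 (107 and 21). Chromosomes 3, 4 and 14 were also low, with ratios of 1.90, 1.93 and 1.93. At a common score of 70 chromosome 13 still had the lowest ratio, 2.88, with 26 WT peaks. Without chromosomes 8 and 11 the ratio of the whole lists was 2.83.

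**Figure D5:**
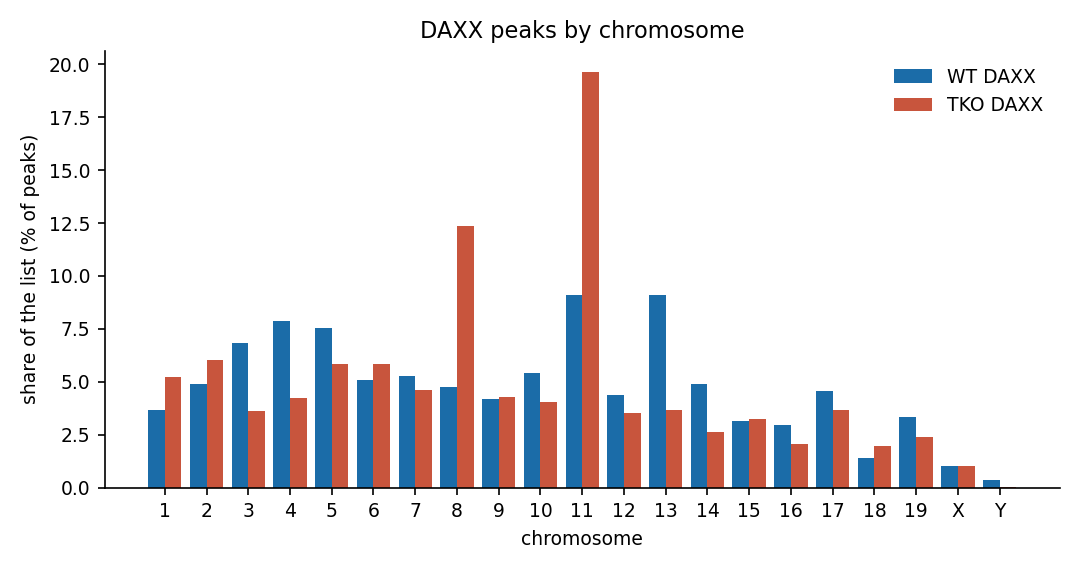
Share of each DAXX list (y, % of peaks) on each chromosome (x), for the 570 WT and 2046 TKO peaks. Chromosomes 8 and 11 stand out in the TKO list at 12.4% and 19.6%, and chromosomes 11 and 13 hold 9.12% each of the WT list.

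The shares of the lists at the chromosome ends differed little at the start and more at the far end. The first 10 Mb held 7.02% of WT peaks (5.06 to 9.43) and 7.58% of TKO peaks (6.47 to 8.81), against 21.6% and 23.9% of the WT and TKO IgG peaks. The last 10 Mb, counted from the highest position of any listed peak, held 14.9% of WT peaks (12.1 to 18.1) and a larger part of the TKO list, 410 of 2046 peaks (18.3% to 21.8%), against 18.9% and 19.5% of the WT and TKO IgG peaks. Without chromosomes 8 and 11 the shares were 14.7% and 15.5%.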

How the data were processed

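Per the submitters' processing notes, the tools include Bowtie2 and Picard and the build is mm9; versions are not listed. The caller's version, settings and controls were not given in the sources used here, nor were read depths. Deposited ATRX and DAXX lists give positions and a score without a named scale, taken here to be a p-value as 10 times its negative log10, the form in the IgG headers. Tag counts and the fold (ratio) over background in the authors' IgG tables were not used here. BED starts were changed to count from 1. Overlap meant 1 bp or more in common, computed with Python 3.11.15, numpy 2.4.6 and pandas 2.3.3, with intervals from scipy 1.17.1. The overlap code was tested on simulated data and checked against bedtools 2.31.1, from which 0 of 30 ordered pairs differed. The naming rule took all common regions, the 20 highest and 5 longest peaks per list, the 3 fullest 1 Mb bins, the 5 closest pairs and the peaks at the score limits. The comparison, its lists and its alternatives were chosen with earlier results of these data known. The gene tables used here are GRCm38.p6, so mm9 peaks were not assigned to genes and no sequence was read.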

Additional observations from a re-analysis of the deposited data

Results flagged for a closer look

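Above a high score cut, the ratio of TKO to WT peak numbers lay on opposite sides of 1 for the 2 antibodies, while at cuts from 50 to 100 both ratios were above 1. Scores vary with depth and control, so these counts do not measure a change in binding. At a score of 150 or more the TKO to WT ratio was 0.552 for DAXX and 3.12 for ATRX, at 200 or more it was 0.438 and 4.50, and at 300 or more it was 0.356 and 5.67. There was 1 library behind each number, so the difference between the antibodies was not tested. The ATRX ratios rest on 24, 8 and 3 WT peaks, and the WT ATRX list is the one that shares intervals with TKO DAXX.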

How the results depend on the processing

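Of 65 recomputed values, 39 stayed within the 95% interval of the value reported, or within a factor of 1.5 for ratios, and 26 moved. The ratio of list lengths was 6.84 at a score of 70 or more, 2.08 at 100 or more and 2.27 without the identical intervals. The share of WT peaks overlapping a TKO peak was 0.526% at 100 or more, 0.669% with the 299 highest peaks of each list, 0.175% without the identical intervals and 4.21% within 10 kb. The share of TKO peaks was 0.0772% without the identical intervals and 1.08% within 10 kb. A wider gap can only raise these shares, and removing the identical intervals can only lower the WT share. The other 17 that moved were lengths, covered length and spacing. Among them, 2.11% of WT peaks and 11.4% of TKO peaks had another peak of the list within 10 kb at a score of 100 or more, the opposite order to the whole lists. Leaving out the runs on chromosomes 13 and 3, or the run on chromosome 9, was chosen after the data were seen. Without the latter 7.53% of TKO peaks had another within 10 kb. No paired analysis was possible because each group has 1 library. Read depth was not known, so absence of a peak does not show that DAXX was absent.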
